A study of Mus musculus with 25 samples.

Results

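Of the 25 CA1 arrays in the handling experiment, 8 were made from RNA extracted with Trizol, and these are the arrays described here. They came from 4 handled mice (H113, H126, H130 and H131) and 4 non-handled mice (NH138, NH144, NH146 and NH147), and each mouse gave 1 Affymetrix mouse expression array. All were female Balb c/J mice. Handled pups were separated from their mothers for 15 min each morning on postnatal days 1 to 14, with pups and mothers held in clean cages, and non-handled litters were left undisturbed. Both groups went through behavioral testing that began at 8 weeks of age, and CA1 was dissected 2 weeks later. The labels name the mice of each extraction by place in the list of samples. Whole litters were handled, and since the sources used here do not tie single mice to litters, each test treats mice as independent. Mice of different extractions may share a litter. The other 17 arrays, from 7 handled and 10 non-handled mice whose RNA was extracted with RNA/DNA columns, were used as a separate set of mice in which the same measure was read again, in the fit of the interaction, and to set a scale on which the Trizol mice were placed.

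CA1 is the output field of the hippocampus, a layer of pyramidal neurons with inhibitory interneurons, glia and vessels around them. Neonatal handling is a classic early-life manipulation in rodents: it is known for lasting effects on stress hormone responses and exploration in adults, with hippocampal corticosteroid receptors long studied as one site of these effects. Dissected tissue holds all of these cells, so for any gene below, fewer cells of a type and less RNA per cell cannot be told apart.

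The labelled tissue carried its defining transcripts in both groups. The summed signal of 10 CA1 pyramidal marker genes ran from 39040 to 50350 in handled and from 38810 to 53700 in non-handled CA1. Log2 signal over 45037 probe sets correlated between mice at 0.892 to 0.918 within handled, 0.891 to 0.910 within non-handled and 0.887 to 0.917 between the groups. Median signal was 115.9 to 141.9 in handled and 138.5 to 162.8 in non-handled animals (p = 0.257 by a two-sided exact permutation test, 4 against 4 mice). RNA quality, read as the log2 ratio of 3' to 5' control probe sets for Actb, was 1.64 to 2.05 and 1.62 to 2.12 (p = 0.857, same exact test). The variance of natural-log signal on an array did not overlap between the groups. It was 3.189 to 3.715 in handled and 2.85 to 3.184 in non-handled mice, and was not put to this test.

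One handled mouse stood apart from the other 3 at the probe sets that differ most between the column groups. In the column mice, limma called 4.36% of the 45037 probe sets higher and 7.65% lower in handled mice at a Benjamini-Hochberg adjusted p under 0.05. From these, 102 probe sets in the upper 50% of column signal with a difference of at least 2 on the log2 scale were taken, 100 of them lower and 2 higher in handled column mice. They were chosen after the data were seen, but on column mice alone. Each Trizol mouse was then placed on a scale from 0, the mean of non-handled column mice, to 1, the mean of handled column mice. The median position of H113 was 0.89. H126, H130 and H131 had medians of 0.39, 0.40 and 0.48, and NH138, NH144, NH146 and NH147 of 0.08, 0.19, 0.24 and 0.33. H113 thus lay close to the handled column mice, the other 3 handled mice lay between the column groups, and all 4 handled medians were above all 4 non-handled ones. Of the 4 handled mice, H113 was nearest to the handled column mean, or furthest beyond it, at 82 of the 102 probe sets. By mouse number H113 falls among the handled column mice (H108 to H123) and the other 3 come after them. Among non-handled mice, the column mouse NH142 falls between the Trizol mice NH138 and NH144. What the numbers stand for is not given in the sources used here. Over all probe sets, H113 had a mean correlation of 0.907 with the other Trizol mice, within the 0.892 to 0.909 of the 8 mice. Nfkbiz and Fam13c, picked for unlike levels in Trizol and column mice, had H113 with the other Trizol mice. Both are named below because all 4 handled mice lay above the non-handled ones. That choice already puts H113 above the non-handled Trizol mice, so these genes cannot show where H113 belongs. Nfkbiz was 8.14 in H113 and 8.07 to 8.19 in the other 3, beside 5.48 ± 1.09 (SD) in handled column mice. Fam13c was 8.55 and 8.37 to 8.56, beside 5.52 ± 0.58. The labels put H113 with the Trizol mice, and whether its extraction was as labelled was not tested, so each 4-against-4 value below rests on that label. At the 583 brighter probe sets with a called column difference of 1 to 2, the medians were 0.74 in H113, 0.65 in H131, 0.43 in H126 and 0.41 in H130, so there H113 was highest but close to H131.

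Single probe sets show the size of this. Pik3cd, which encodes the delta catalytic chain of PI3 kinase, had a log2 signal of 10.61 in H113 and 13.87, 14.14 and 13.55 in H126, H130 and H131, beside 15.40, 14.33, 14.56 and 13.99 in NH138, NH144, NH146 and NH147. In column mice it ran from 9.86 to 10.73 in handled and from 15.19 upward in non-handled mice, so only H113 of the Trizol mice was at the level of the handled column mice. The probe set for Cryl1, lambda-crystallin, followed the same pattern at 7.15, 11.62, 10.53 and 9.63 in the handled and 10.89, 10.70, 10.59 and 10.39 in the non-handled Trizol mice. Its Trizol difference was -0.91 with H113 and -0.05 without it, and its 2 other probe sets in the upper 50% of signal differed by -0.15 and 0.17. Over the 102 probe sets the median Trizol difference was -0.83, and -0.55 without H113. The main counts are therefore also given without it.

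No probe set passed limma's test between the 4 handled and 4 non-handled mice. Of 45037 probe sets 0% were called, and the smallest adjusted p was 0.302. At an unadjusted p under 0.05, limma had 2870 probe sets, or 6.37%, of which 629 were higher and 2241 lower in handled mice. Without H113 there were 2457 such probe sets and still no call. Without a trended prior limma called 1 probe set, for Cemip2, a cell-surface hyaluronidase. Its log2 signal was 5.81, 5.70, 5.85 and 5.70 in the handled mice (H113, H126, H130 and H131, the order used from here on) and 2.83, 2.36, 2.13 and 2.57 in the non-handled mice (NH138, NH144, NH146 and NH147). The difference was 3.29 (adjusted p = 0.0095 from limma without the trend and 0.375 with it), at a mean signal in the lowest 9.8% of probe sets.

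The question of which genes separate the groups was therefore put as a count. A probe set was called fully separated where all 4 handled values lay above, or all 4 below, the 4 non-handled values, and the gap is the distance on the log2 scale between the nearest mice of the groups. In all, 409 probe sets (0.908%) were separated with handled mice higher and 1323 (2.94%) with handled mice lower. Of the 70 ways to assign 4 of 8 mice, 1 puts the handled mice above all others and 1 below. If group labels made no difference, about 1 in 70 probe sets would thus be separated in each direction. The higher share was below 1 in 70 and the lower share above it, and neither departure was tested. A separated probe set is therefore not by itself evidence of a handling effect. Taking the brightest probe set of each of 18193 genes, 151 genes (0.83%) were separated higher and 625 (3.44%) lower. In the brighter 50% of probe sets the counts were 249 (1.11%) and 540 (2.40%). With 1 mouse fewer separation is easier, and leaving out any 1 mouse gave 707 to 1132 higher and 2003 to 2688 lower probe sets. Without H113 these were 884 and 2003, with 500 and 807 in the brighter 50% and 337 (1.85%) and 882 (4.85%) by gene.

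The direction depended on signal level. In the dimmest 25% of probe sets 0.710% were separated higher and 3.36% lower. In the brightest 25% the shares were 1.42% and 1.31%, both close to 1 in 70. The median difference of all probe sets ran alongside, from -0.34 in the dimmest 25% to 0.04 in the brightest. Scaling changed this balance: 23.6% of separated probe sets were higher in handled mice as deposited, 45.6% after quantile normalization (675 higher and 804 lower) and 47.3% after arrays were scaled to the same mean and variance (717 and 798). Of the separated probe sets as deposited, quantile normalization kept 82.4% of those higher and 58.0% of those lower, so the excess of lower probe sets is a statement about signal as scaled by MAS 5.0.

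**Figure D1:**
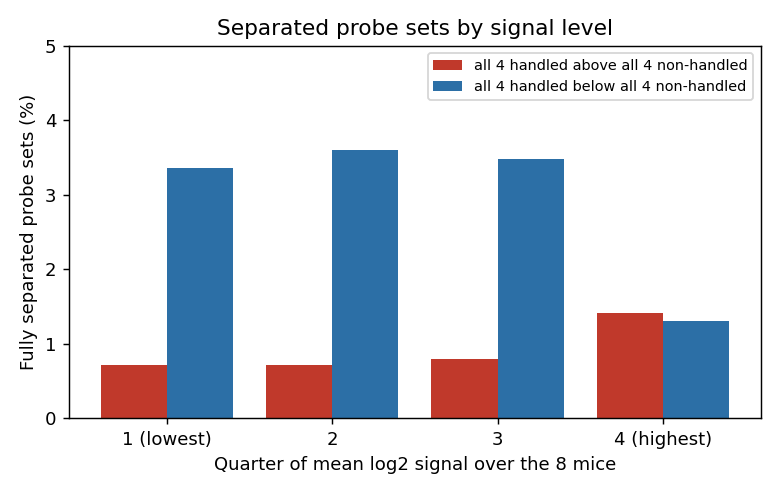
Share of probe sets (percent, vertical axis) whose 4 handled values lay all above (red) or all below (blue) the 4 non-handled values, in 4 equal bins of mean log2 signal over the 8 Trizol mice. Lower probe sets made up 3.36% to 3.60% of the 3 dimmer bins and 1.31% of the brightest, where higher ones made up 1.42%.

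The widest gaps above the non-handled mice were at single probe sets of genes with varied roles. Gdpd2, a glycerophosphodiester phosphodiesterase, had a log2 signal of 7.57, 7.60, 7.51 and 7.45 in handled and 6.20, 6.73, 6.74 and 6.52 in non-handled mice. The 4 handled mice were within a narrow band and the groups were 0.72 apart at their nearest, the widest gap among higher probe sets in the upper 50% of signal. The difference was 0.99 (standard error 0.33), a 1.98-fold level, and 0.87 in the column mice (adjusted p = 0.152 from limma). Nfkbiz, an atypical inhibitor protein that regulates NF-kappa-B target genes in the nucleus, had 8.14, 8.19, 8.16 and 8.07 against 7.37, 7.59, 7.43 and 7.43, a gap of 0.48. Its difference was 0.69 with Trizol and 0.03 in column mice (adjusted p = 0.971 from limma), and the interaction of handling with extraction did not pass the test (adjusted p = 0.869 from limma).

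Of the 12 higher genes with the widest gaps, 4 were also called higher in column mice at the same probe set, beside 8.42% of all probe sets in the brighter 50%. Spop, the substrate adaptor of a cullin-3 ubiquitin ligase, had 9.80, 9.38, 9.34 and 9.85 in handled and 8.86, 8.88, 9.08 and 8.63 in non-handled mice. H113 and H131 were the higher pair, and no handled mouse reached down to the non-handled range. The difference was 0.73 (standard error 0.18) and 0.94 in column mice (adjusted p = 0.00243 from limma). A second probe set was separated as well, at 0.44 with Trizol and 0.81 with columns (adjusted p = 0.0151 from limma). Cnot2, a scaffold subunit of the CCR4-NOT complex that shortens poly(A) tails, had 10.50, 10.56, 10.49 and 10.51 against 10.12, 10.18, 10.10 and 9.90. The handled mice were almost level here, and the difference was 0.44 with Trizol and 0.58 with columns (adjusted p = 0.0391 from limma). Its 3 other bright probe sets differed by 0.17, 0.00 and 0.21. Dnajc10, a disulfide reductase of the endoplasmic reticulum, had 10.05, 10.40, 10.52 and 10.13 against 9.64, 9.74, 9.67 and 9.68, a difference of 0.59 that was 0.51 with columns (adjusted p = 0.0277 from limma). Recql, a DNA helicase, was 0.55 higher with Trizol and 0.49 with columns (adjusted p = 0.0326 from limma).

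The other 6 genes of this kind were higher by 0.51 to 1.02, and none of these probe sets was called in column mice. They were Zfp516, a zinc finger transcription factor (0.77), Rab27a, a GTPase of secretory vesicles (0.68), Csnk1a1, casein kinase 1 alpha (1.02), Nexmif, an X-linked gene of neurite extension (0.72), Slc25a53, a mitochondrial carrier (0.51), and Fam13c (0.64). Other probe sets of these genes often differed: the other bright ones had -0.20 for Zfp516, -0.43 and 0.28 for Nexmif, -0.22 for Slc25a53, -0.15, 0.08 and -0.11 for Fam13c and 0.10, 0.16 and 0.28 for Csnk1a1.

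Gaps below the non-handled mice were wider. Ano3, a membrane protein of the anoctamin family, had 6.72, 6.04, 4.99 and 6.61 in handled and 7.77, 8.20, 7.96 and 7.92 in non-handled mice. H130 was lowest, and even the highest handled mouse was 1.05 below the lowest non-handled one. The difference was -1.87 (standard error 0.41) and the other probe set of Ano3 had 0.45. Nrip1, a corepressor of nuclear receptors, had 7.58, 6.05, 7.65 and 6.57 against 8.91, 8.72, 8.71 and 8.51, a difference of -1.75 that was -1.67 with columns (adjusted p = 0.00246 from limma). H126 and H131 were the lower pair, and 4 further bright probe sets of Nrip1 differed by 0.24, 0.23, -0.01 and 0.32. Single probe sets, not whole genes, thus carried these gaps.

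Runx1, a transcription factor of blood cell development, had 7.07, 7.31, 7.80 and 7.38 in handled and 9.05, 9.22, 8.64 and 8.78 in non-handled mice. All handled mice were low and close together. The difference of -1.53 (standard error 0.24) had the smallest adjusted p of the Trizol test, 0.302 from limma, and was -1.50 with columns (adjusted p = 0.00026 from limma). Fbxo36, an F-box protein, shared that adjusted p at -1.77, with 7.56, 8.24, 8.03 and 7.01 against 10.17, 8.98, 9.33 and 9.43, and was -2.33 with columns (adjusted p = 0.000278 from limma). Commd5, a COMM domain protein, had 8.45, 10.36, 10.93 and 10.50 against 12.65, 12.35, 11.71 and 11.99. H113 was far below the other 3 handled mice, which were still below every non-handled mouse. The difference was -2.12, or 4.34-fold, and -1.58 without H113, beside -4.10 with columns (adjusted p = 8.09e-09 from limma). These values are also of single probe sets. The other bright probe set differed by 0.18 for Commd5 and by -0.15 for Runx1. Fbxo36 had 1 other probe set, outside the brighter 50%, and it was not lower in handled mice.

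The other genes of this kind included a regulator of small GTPases and a calcium channel. Cacna1g, the T-type channel Cav3.1, had 7.46, 7.44, 7.49 and 7.64 in handled and 8.19, 8.40, 8.32 and 8.43 in non-handled mice, tight in both groups and 0.56 apart. The difference was -0.83 with Trizol and -0.40 with columns (adjusted p = 0.222 from limma). Acap1, which activates the GTPase of ARF proteins, was -1.15 (-1.72 with columns, adjusted p = 0.00438 from limma). Tmem258, a subunit of the oligosaccharyltransferase, was -1.23 (-1.29, adjusted p = 0.000648 from limma). Cryzl2, a quinone oxidoreductase-like protein, was -1.44 (-0.64, adjusted p = 0.0161 from limma), Ip6k1, an inositol hexakisphosphate kinase, was -1.37 (-0.49, adjusted p = 0.456), and 6530409C15Rik was -1.01 (-1.42, adjusted p = 0.00767). All of the 24 genes with the widest gaps stayed separated after both other scalings.

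**Figure D2:**
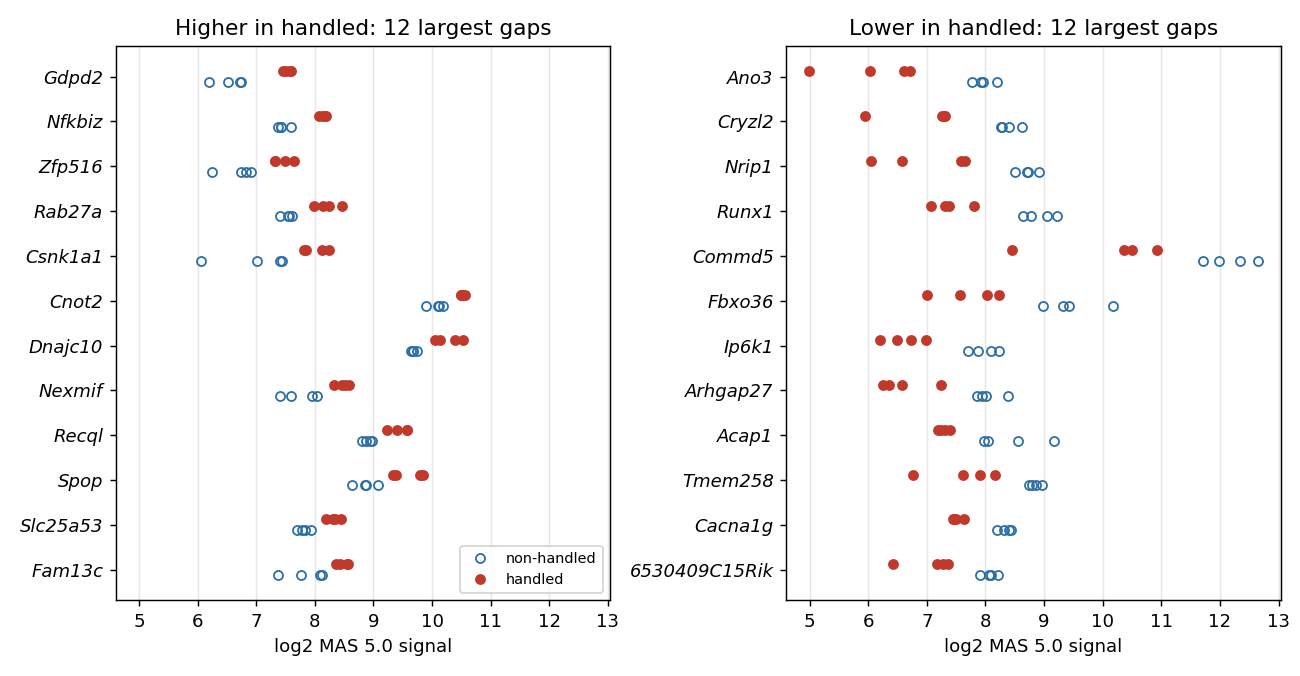
Log2 MAS 5.0 signal (horizontal axis) of each of the 4 handled (red, filled) and 4 non-handled (blue, open) Trizol mice for the 12 genes with the largest gap in each direction, among separated probe sets with 1 gene in the brighter 50%. Gaps run down from 0.72 (Gdpd2) on the left and from 1.05 (Ano3) on the right.

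In 11 genes at least 2 probe sets were separated higher with none opposite, and in 21 at least 2 were separated lower. Probe sets of a gene are not independent, and no share over all genes with several probe sets is at hand. These counts therefore cannot show an excess. Aldh2, the mitochondrial aldehyde dehydrogenase, had 9.40, 9.47, 9.99 and 9.65 against 10.91, 10.61, 10.59 and 10.37 at its wider probe set. Every handled mouse was below 10, and the second probe set, at 9.70, 10.18, 10.12 and 9.42 against 10.79, 10.34, 11.27 and 10.29, was separated by 0.10. The differences were -0.99 and -0.82 with Trizol, and -2.03 and -1.87 with columns (adjusted p = 6.15e-08 and 0.000208 from limma). A further bright probe set of Aldh2 went the other way, at 0.07 with Trizol and 0.64 with columns (adjusted p = 0.000913 from limma). Sod3, the extracellular superoxide dismutase, had 6.40, 4.15, 5.95 and 6.50 against 8.11, 7.50, 8.04 and 7.12, with H126 lowest. Both of its probe sets were separated, at -1.95 and -1.77, and both were called lower in column mice, at -1.69 and -1.80 (adjusted p = 0.0137 and 0.0251 from limma). Cbfa2t3, a transcriptional corepressor, had 3 of 4 probe sets separated lower, by -0.53, -0.57 and -0.42.

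Among genes higher at several probe sets were 2 of the endomembrane system. Lamp2, a major protein of the lysosomal membrane, had 10.74, 10.71, 10.91 and 10.54 in handled and 10.22, 10.41, 10.24 and 10.26 in non-handled mice. H130 was highest and the groups were 0.13 apart. All 4 of its probe sets were higher in handled mice, 2 of them separated, by 0.44 and 0.30. Vmp1, a protein of autophagosome formation, had 12.85, 12.80, 12.80 and 12.78 against 12.59, 12.63, 12.53 and 12.55, a difference of 0.23 that no longer separated the groups after either of the other scalings.

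Separated genes were mostly on the same side in column mice, which are different animals but may be littermates of the Trizol mice. Effects of litter shared by both sets were not tested. Of the 249 probe sets separated higher in the upper 50% of signal, 82.3% were higher in handled column mice, where 49.0% of all such probe sets were. Limma called 59 of them (23.7%) higher in column mice and 1 lower, against 8.42% of all probe sets of that signal called higher. Of the 540 separated lower, 86.5% were lower in handled column mice, and 190 (35.2%) were called lower and 2 higher, against 8.79% called lower among all. Over all signal levels the share on the same side was 65.3% of the 409 higher and 86.8% of the 1323 lower, where 36.6% of all probe sets were higher with columns. With H113 left out of the Trizol groups these shares were 52.6% and 79.8%, and in the brighter 50% they were 66.2% of 500 and 75.1% of 807, with 80 called higher and 206 called lower in column mice. These 4 shares on the same side were the lowest reached by leaving out any 1 of the 8 mice. Probe sets both separated with Trizol and called with columns numbered 285 lower, with a median difference of -0.82 with Trizol and -1.16 with columns, and 59 higher, at 0.34 and 0.51. The interaction of handling with extraction passed limma's test at 23 of 45037 probe sets. At 22 of them the handling difference was more positive with Trizol than with columns, and at 1 it was less positive.

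**Figure D3:**
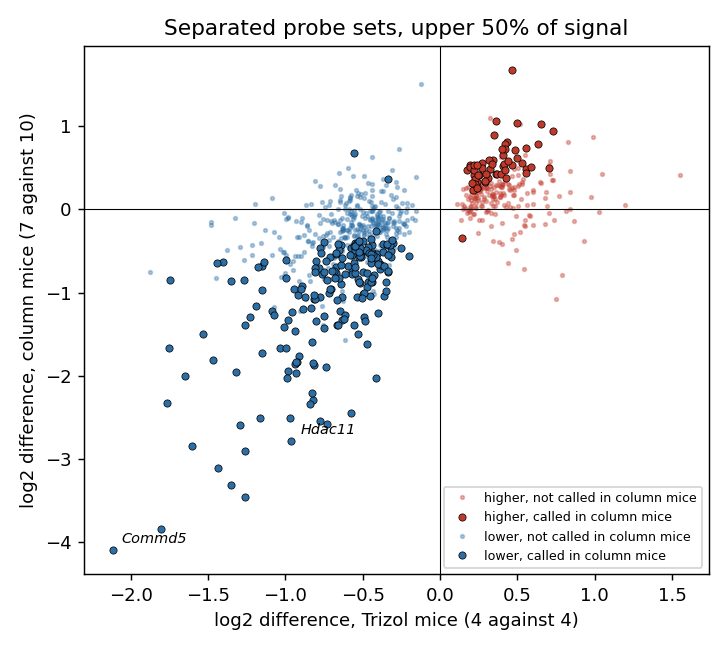
Difference of log2 signal, handled minus non-handled, in the 8 Trizol mice (horizontal axis) and in the 17 column mice (vertical axis) for the 249 higher (red) and 540 lower (blue) separated probe sets in the upper 50% of signal. Outlined points were called in the column mice at an adjusted p under 0.05. Commd5 lies at -2.12 and -4.10, and Hdac11 at -0.96 and -2.78.

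Immediate early genes, which neurons switch on within minutes of activity, had the lowest median of the 35 gene lists. Of 22 measured, 19 had a lower mean in handled mice and 3 a higher one (Nr4a3, Homer1 and Ier2). The median difference was -0.46, beside -0.08 over all 18193 genes. Limma called none of them, and 4 of 22 had an unadjusted p under 0.05 (Egr4, Jun, Fos and Btg2), beside 1191 of all 18193 genes. Separated were 2, Egr4 and Junb (9.09%, against 3.44% of all genes). In column mice the median of the same genes was 0.10. Leaving out 1 mouse at a time gave medians from -0.57 to -0.31. Without H113 the median was -0.47, and Jun was separated as well, giving 3 of 22 (13.6%, against 4.85% of all genes).

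The 2 separated genes and Fos are shown with the 250 bases before their starts because this family is known for promoters that respond to cAMP and calcium. Sequences are from RefSeq on GRCm38.p6, 5' to 3' on the strand of the gene. Capitals mark the CRE half-site TGACG on either strand (CGTCA where it lies on the other strand). Egr4 is at chr6:85513590-85513839 on the minus strand, Junb at chr8:84978749-84978998 on the minus strand and Fos at chr12:85473640-85473889 on the plus strand.
Egr4: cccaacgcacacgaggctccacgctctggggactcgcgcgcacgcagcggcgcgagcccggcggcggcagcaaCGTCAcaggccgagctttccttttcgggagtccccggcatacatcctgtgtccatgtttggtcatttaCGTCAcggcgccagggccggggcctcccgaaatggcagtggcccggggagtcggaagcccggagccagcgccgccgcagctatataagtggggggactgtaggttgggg
Junb: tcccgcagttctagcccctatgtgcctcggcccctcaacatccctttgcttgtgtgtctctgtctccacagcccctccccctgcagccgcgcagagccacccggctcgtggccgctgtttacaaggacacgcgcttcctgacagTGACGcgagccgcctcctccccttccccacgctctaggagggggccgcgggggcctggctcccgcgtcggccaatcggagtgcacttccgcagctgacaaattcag
Fos: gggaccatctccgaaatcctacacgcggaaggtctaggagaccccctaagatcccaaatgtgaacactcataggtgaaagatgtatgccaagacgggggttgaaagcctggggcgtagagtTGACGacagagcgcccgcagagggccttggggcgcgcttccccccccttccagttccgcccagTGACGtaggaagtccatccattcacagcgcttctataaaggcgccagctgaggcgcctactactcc
Egr4 and Fos hold the motif at 2 places each and Junb at 1. It occurs in 17.8% of the 32851 promoters in the table, or 19.8% of the 27025 genes, and in 14 of the 18 immediate early genes that have a promoter there (77.8%). A match is a run of letters and not a measured binding site.

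Egr4, a zinc finger factor of the Egr family, had a log2 signal of 6.38, 6.83, 5.54 and 6.62 in handled and 7.92, 7.68, 7.82 and 6.98 in non-handled mice. H130 was lowest and NH147 was nearest to the handled mice, 0.16 above H126. The difference was -1.26 (standard error 0.39), and in column mice it was -1.39 (adjusted p = 0.00332 from limma). Junb, a subunit of the AP-1 factor, had 7.26, 6.64, 7.20 and 7.31 against 7.69, 7.72, 7.40 and 7.83. H126 was far below the other handled mice, and H131 was only 0.09 below NH146. Its difference was -0.56 with Trizol and -0.01 with columns (adjusted p = 0.99 from limma), and the groups overlapped after either of the other scalings.

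The remaining genes of the family overlapped between the groups. Fos, the partner of Jun in AP-1, had 9.39, 8.08, 9.60 and 10.22 against 10.46, 10.54, 9.73 and 9.77. Only H131 was within the non-handled range, and the difference was -0.80 (unadjusted p = 0.0312 from limma). Arc, a synaptic protein of plasticity, had 8.64, 6.65, 8.69 and 8.82 against 9.50, 9.02, 8.76 and 7.88, with H126 lowest and NH147 below 3 of the handled mice. Ier2 went the other way, at 6.64, 7.68, 7.50 and 6.91 against 4.22, 7.00, 6.68 and 6.45, where NH138 alone was low. Scaled by quantiles or to the same mean and variance, Ier2 was separated higher in handled mice.

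The immediate early genes also differed among the handled mice. Relative to the mean of the 8 mice, the median over the 22 genes was -0.06 in H113, -0.41 in H126, -0.25 in H130 and 0.17 in H131. It was 0.33, 0.15, 0.15 and 0.28 in NH138, NH144, NH146 and NH147, so H131 was within the non-handled range and the other 3 handled mice below it. On this scale, the mice of each group with the higher Actb 3' to 5' ratio (H126, H130, NH144 and NH146, at 1.98 to 2.12) had the lower medians. The other mice had ratios of 1.62 to 1.73. Relative to the mean of the non-handled mice, the medians of NH138, NH144, NH146 and NH147 were 0.08, -0.03, 0.08 and 0.07, so NH146 was not lower there. The part of RNA quality in these medians was not tested.

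**Figure D4:**
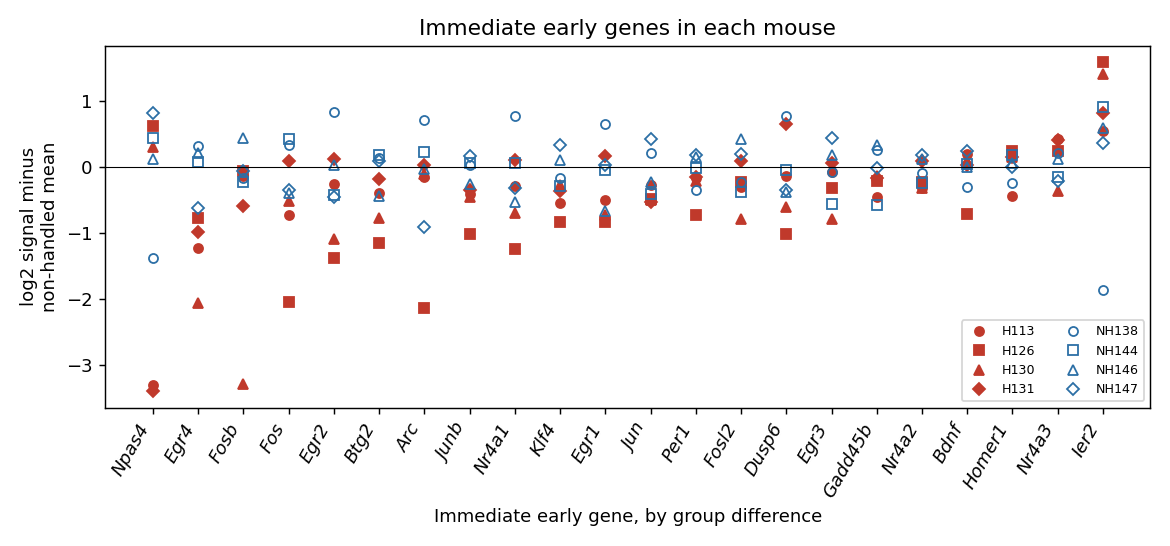
Log2 signal of 22 immediate early genes (horizontal axis, ordered by group difference) in each of the 8 Trizol mice minus the mean of the 4 non-handled mice (vertical axis). Filled red symbols are handled and open blue symbols non-handled mice. H126 (red squares) is the lowest handled mouse at Fos, Arc and Junb.

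Corticosteroid receptors and their response genes showed little difference. Of 23 measured, 14 were higher and 9 lower, with a median of 0.02, and 1 was separated (4.35%, against 3.44% lower over all genes). Nr3c1, the glucocorticoid receptor, had 11.42, 11.40, 11.72 and 11.42 in handled and 11.21, 11.45, 11.67 and 11.13 in non-handled mice at its brightest probe set. The groups overlapped, with H130 and NH146 highest, and the difference was 0.13 (standard error 0.15, adjusted p = 0.895 from limma) beside 0.28 with columns (adjusted p = 0.0546). None of its 6 probe sets separated the groups. Nr3c2, the mineralocorticoid receptor, had 11.46, 11.60, 11.53 and 12.30 against 11.97, 11.62, 11.57 and 11.94, a difference of -0.05 whose sign turned in 5 of the alternatives. H131 was the highest of the 8 mice and H113 the lowest. The separated gene was Crh, corticotropin-releasing hormone, at 7.23, 7.16, 7.13 and 7.08 against 7.42, 7.38, 8.36 and 7.86. Handled mice were tight, NH146 was highest, and the difference was -0.60 with Trizol and -0.04 with columns. Crh was not separated after either of the other scalings.

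On the inhibitory side, Gad2, an enzyme of GABA synthesis, had 12.40, 11.75, 12.01 and 11.76 in handled and 11.68, 11.40, 11.28 and 11.57 in non-handled mice. H113 was highest and the groups were 0.07 apart. The difference of 0.50 (standard error 0.16) was 0.36 without H113 and 1.04 with columns (adjusted p = 0.000874 from limma), and the groups overlapped after arrays were scaled to the same mean and variance. Its other probe set had 0.12 with Trizol and 0.96 with columns (adjusted p = 0.0329 from limma). Of 16 genes of GABA receptors and synthesis, 10 were higher and 6 lower, with a median of 0.12 and Gad2 the only one separated (6.25%, against 0.83%). The summed signal of 14 interneuron markers was 33040 to 40080 in handled and 28530 to 36500 in non-handled mice, with H113 highest. Of these 14 genes, 6 had a higher and 8 a lower mean in handled mice, with a median of -0.04. The part of interneuron number in the Gad2 value was not tested. Slc17a6, a vesicular glutamate transporter, had 9.62, 9.61, 9.54 and 9.89 against 8.96, 9.41, 9.17 and 9.48. It was separated by 0.06, at a difference of 0.41, and was 0.66 with columns (adjusted p = 0.027 from limma).

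Chromatin modifiers had 3 separated genes of 34, all lower and all histone deacetylases (8.82%, against 3.44% of all genes), and a list median of -0.06. Without H113 there were 5, all lower (14.7%, against 4.85%), the added ones being Mbd4 and Kat2a. Hdac11 had 10.66, 12.78, 12.49 and 12.50 in handled and 13.51, 12.93, 12.92 and 12.92 in non-handled mice. H113 was far below the other handled mice, which lay just under NH144, NH146 and NH147, and NH138 was above all. The difference was -0.96 (standard error 0.34) and -0.48 without H113. In column mice it was -2.78 (adjusted p = 9.3e-14 from limma), with levels of 11.07 ± 0.39 (SD, 7 handled mice) and 13.85 ± 0.21 (SD, 10 non-handled mice), and the interaction passed the test (adjusted p = 0.0225 from limma). The other probe set of Hdac11 differed by -0.17 with Trizol and -0.15 with columns (adjusted p = 0.334). Hdac7 was -0.52 and Hdac4 -0.37, with gaps of 0.02 and 0.01, and Hdac4 overlapped after either of the other scalings.

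Transcription factors of the CREB and ATF family had 2 separated genes of 20, both lower (10.0%, against 3.44% of all genes). The same 2 were separated without H113, beside 4.85% lower over all genes. Atf4, the factor of the integrated stress response, had 10.52, 10.44, 10.20 and 10.39 against 10.90, 10.66, 10.67 and 11.06. The difference was -0.43 (standard error 0.14) and -0.55 with columns (adjusted p = 0.0056 from limma). Atf2, which was higher in handled column mice at 2 probe sets (0.83 and 1.20, adjusted p = 0.0216 and 6.04e-05 from limma), differed by 0.26 and 0.30 there in Trizol mice. At the second of these, H113 had 12.77 and the other handled mice 11.92, 12.09 and 12.10, beside 12.07, 11.93, 12.10 and 11.58 in non-handled mice, so only H113 lay above them all. Cpeb4, a regulator of cytoplasmic polyadenylation, had the same form at 13.48, 12.35, 12.48 and 12.62 against 13.09, 12.38, 12.47 and 11.16.

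Of 81 potassium channel genes, 1 was separated higher (1.23%) and 2 lower (2.47%), near the shares of all genes (0.83% and 3.44%), with a median of -0.12. Kcnh3, an ether-a-go-go family channel of forebrain neurons, had 8.60, 9.49, 9.01 and 9.11 against 11, 10.18, 10.42 and 9.78. H113 was lowest and NH138 highest, and the difference was -1.29 (standard error 0.24, adjusted p = 0.302) with Trizol and -2.59 with columns (adjusted p = 5.68e-07 from limma). Kcnip4, which modulates A-type potassium channels, had 10.84, 10.67, 10.46 and 10.68 against 10.37, 10.18, 10.23 and 10.21, a difference of 0.41 with Trizol and 0.55 with columns (adjusted p = 0.00579 from limma). Of 26 genes of ionotropic glutamate receptors and their scaffolds 0 were separated, at shares of 0.83% and 3.44% over all genes. Without H113, 2 were separated higher (7.69%) and 1 lower (3.85%), beside 1.85% and 4.85% of all genes.

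Among markers of other cell types, 2 of 13 endothelial and mural genes were separated, both lower (15.4%, against 3.44% of all genes). Cldn5, a tight junction protein of the blood-brain barrier, had 8.74, 9.04, 9.18 and 9.09 against 10.35, 9.61, 9.48 and 9.73. NH138 was highest, and the groups were 0.30 apart. The difference was -0.78 (standard error 0.20) and -0.34 with columns (adjusted p = 0.0711 from limma). Kdr, a receptor of vascular endothelial growth factor, had -0.64, and was not separated after either of the other scalings. The other 11 of 13 markers overlapped between the groups, the list median of -0.20 was -0.01 without NH147 and -0.40 without NH144, and their summed signal was 11760 to 14030 in handled and 11770 to 15990 in non-handled mice. In myelin, Mal, a proteolipid of oligodendrocytes, was 0.39 higher and separated by 0.07, 1 of 13 genes (7.69%, against 0.83% of all genes). It was 0.15 higher with columns (adjusted p = 0.357 from limma) and overlapped after arrays were scaled to the same mean and variance.

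Over all genes 0.83% were separated higher and 3.44% lower, and the lists of general cell function are read beside these shares. Separated were 0 of 115 splicing factors, 0 of 46 cytosolic ribosomal proteins, 0 of 64 subunits of the respiratory chain and 0 of 16 glycolytic enzymes. Without H113, 3 splicing factors, 2 ribosomal proteins and 1 respiratory chain subunit were separated higher, and 1 splicing factor and 1 glycolytic enzyme lower. The shares over all genes without H113 were 1.85% higher and 4.85% lower. Chaperones had 5 of 94 lower (5.32%), among them Hspa1a, the inducible Hsp70, at 8.13, 7.69, 7.72 and 8.28 against 8.87, 8.59, 8.66 and 8.67, a difference of -0.74 with Trizol and 0.03 with columns (adjusted p = 0.902 from limma). Mitochondrial ribosomal proteins had 3 of 73 lower (4.11%). The circadian clock list had 2 of 21 separated higher (9.52%) and none lower. They were the nuclear receptors Rora (0.30) and Rorb (0.34), with gaps of 0.04 and 0.03 and with no call in column mice. Of the 21 clock genes, 9 had a higher and 12 a lower mean in handled mice, with a median of -0.10.

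The spread among handled mice was near that among non-handled mice. The median SD of a probe set was 0.449 in handled and 0.473 in non-handled mice, and the median log2 ratio of the SDs was -0.05 (two-sided exact permutation test over all 70 assignments of 4 of 8 mice, p = 0.629). The mean absolute log2 difference between mice of a pair was 0.799 within handled and 0.781 within non-handled pairs (difference 0.0177, exact permutation p = 0.857). The smallest p that 4 mice against 4 can give is 0.0286.

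Their differences had an order that the non-handled mice shared. The first principal component of the 22519 brighter probe sets held 28.7% of the variance and did not divide the groups (exact permutation p = 0.457). H113 (0.03) and H131 (0.07) were above 0 on it, as were NH138 and NH147, and H126 (-0.08) and H130 (-0.26) below, as were NH144 and NH146. The Actb 3' to 5' ratio ran alongside: it was 1.62 to 1.73 in the 4 mice above 0 and 1.98 to 2.12 in the 4 below. The same ratio for Gapdh did not order the mice so: it was 1.58, 1.95, 1.91 and 1.61 in the handled mice and 1.68, 1.76, 1.49 and 1.74 in the non-handled mice, and NH146, below 0 on the component, had the lowest value. The mice fell into 2 clusters on this ratio, so no correlation is given, and the part of RNA quality in the component was not tested. In the same pairs of handled mice, 5507 of the 22519 probe sets had both H126 and H130 above both H113 and H131 and 4565 had the reverse, against 2654 to 3510 for the other pairings. Among non-handled mice, NH144 and NH146 were both above NH138 and NH147 at 6140 probe sets and both below at 5276, against 2601 to 2915.

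Single genes showed the pairs of handled mice. Egr2, an immediate early gene, had 8.46, 6.95, 6.38 and 8.53 in H113, H126, H130 and H131 at the probe set with the wider split, beside 7.99 to 8.64 in non-handled mice. Igf2, insulin-like growth factor 2, had 7.34, 5.78, 5.15 and 7.30 beside 7.43 to 8.42, so that all handled mice were below the non-handled range but H126 and H130 much further, and the groups overlapped after either of the other scalings. Rassf1, a scaffold of the Hippo pathway, had 9.10, 6.67, 6.80 and 9.16, while the non-handled mice were themselves spread from 7.04 to 9.66. Polr3k, a subunit of RNA polymerase III, split the mice another way at 1 of its probe sets, with 10.56 and 9.47 in H113 and H126, 6.85 and 7.09 in H130 and H131, and 7.49 to 8.20 in non-handled mice. Handled column mice had 10.12 to 11.17 there and non-handled ones 7.86 to 9.75. Lasp1, an actin-binding protein, had low values in H126 (7.16) and H131 (7.89), with 9.46 and 9.50 in H113 and H130 and 9.49 to 9.84 in non-handled mice.

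Counts of probe sets that set 1 mouse above the others were alike in the groups, while counts that set it below overlapped but ran higher in non-handled mice. In the upper 50% of signal, between 7 (H131) and 53 (H126) probe sets had 1 handled mouse above the 3 others by at least 1 on the log2 scale, and between 119 (H130) and 173 (H126) had it below them by as much. For non-handled mice these counts were 9 to 56 and 133 to 257. Glycolytic enzymes followed the pairs of the component. Their list median relative to the 8-mouse mean was 0.06 in H113, -0.04 in H126, -0.33 in H130 and 0.14 in H131, and 0.32, -0.29, -0.18 and 0.39 in NH138, NH144, NH146 and NH147.

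**Figure D5:**
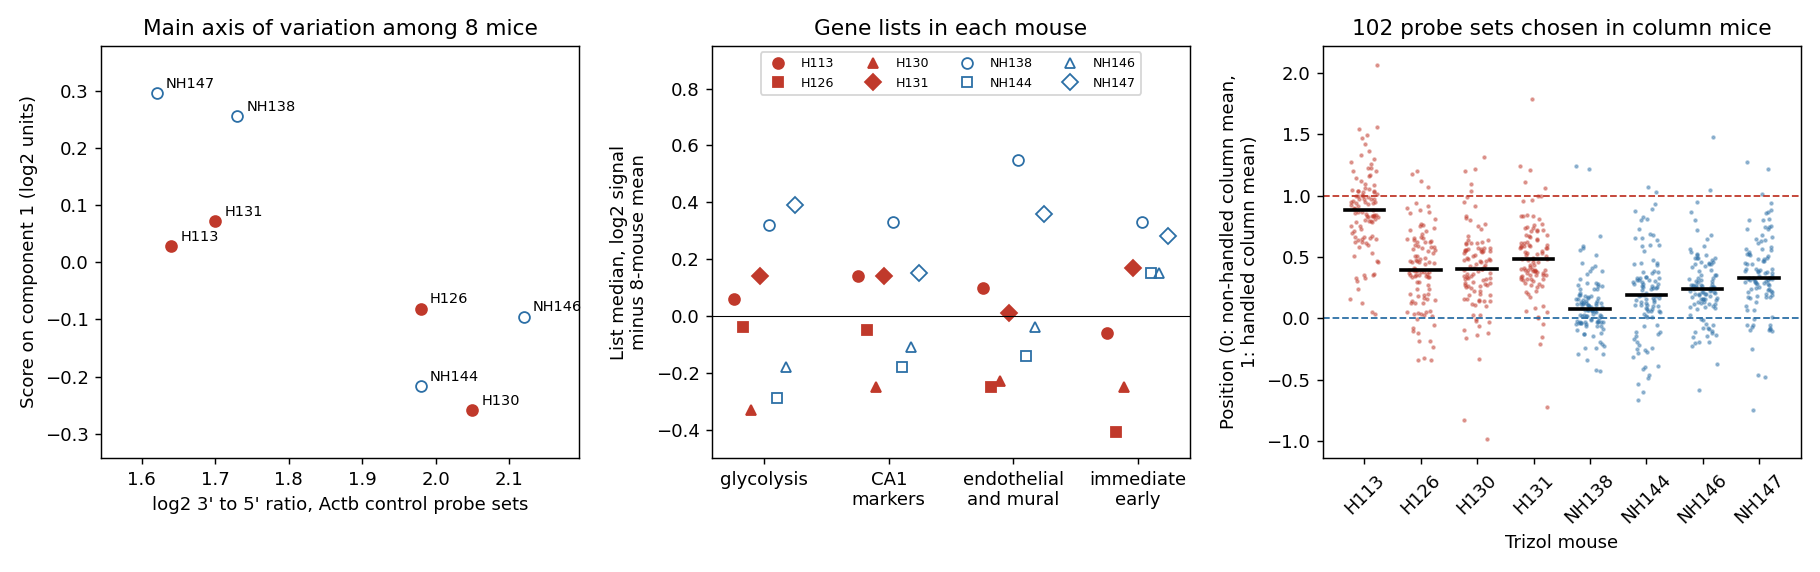
Left, score of each Trizol mouse on the first principal component (log2 units) against the log2 3' to 5' ratio of the Actb control probe sets, handled in red and non-handled in open blue. Middle, median of 4 gene lists in each mouse relative to the mean of the 8 mice (log2). Right, position of each mouse between the column groups at 102 probe sets chosen in column mice (0 is the non-handled and 1 the handled column mean), with the median as a bar. H113 is at 0.89 and the other handled mice at 0.39 to 0.48.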

How the data were processed

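CA1 RNA was amplified in a double round and hybridized in parallel. Per the labels and methods, the authors made the signal with MAS 5.0 in Affymetrix Expression Console, and the deposited values are linear intensity, scaled by 1 factor per array with no normalization of distributions. Log2 was taken without an offset. The table has 45101 probe sets, of which 64 controls were dropped. Of all probe sets 34958 map to 1 gene, 932 to several and 9211 to none, and 34754 symbols were updated by gene identifier. In lists, a gene was read at its brightest probe set.

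Groups were compared with limma 3.58.1 in R 4.3.3 (trended prior, Benjamini-Hochberg over 45037 probe sets), apart in Trizol and column mice, with the interaction fitted on 25 arrays. The limma fit was tested on simulated data. Other steps used Python 3.11.15 with scipy 1.17.1, pandas 2.3.3, numpy 2.4.6 and matplotlib 3.10.9. The number of arrays limits the precision.

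Named genes were limma calls, the 12 widest gaps in each direction in the brighter 50%, genes with several separated probe sets, up to 3 separated members per list, genes splitting or spread widely among handled mice, and Nr3c1, Atf2, Cpeb4 and Polr3k. Cemip2, Pik3cd, Cryl1 and list members that overlap between groups were chosen after their values were seen. One gene among the widest gaps is not reported here. The mice, gene lists and rules were chosen with earlier results of these data known.

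Alternatives tried were other scalings (quantiles, or equal mean and variance), an offset of 32, dim probe sets left out, no trend, array weights, all 25 arrays, no x_at or s_at probe sets, the mean over probe sets of a gene, and leaving out each mouse. The 3' to 5' ratios as covariates, the scale between column groups and further counts without H113 were added after the data were seen.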

Additional observations from a re-analysis of the deposited data

Results flagged for a closer look

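Within groups of 4 mice, 1 mouse stood apart where its gap to the nearest mouse, divided by the range of the group, passed the 95% limit of Dixon's test. In all, 136 groups were tested, and chance alone would pass about 1 in 20, or 6.8. In handled mice H126 was lowest for Cryzl2 (gap over range 0.966), Arc (0.918), Atf2 (0.901) and Junb (0.845), H113 was lowest for Hdac11 (0.866), and H130 was highest for Nr3c1 (0.925). In non-handled mice NH138 was highest for Hdac11 (0.998), NH146 was highest for Hdac4 (0.914) and lowest for Btg2 (0.877), and NH144 had the highest median signal of its group (0.877). The difference between handled and non-handled mice at Hdac11 itself differed between Trizol and column mice (interaction, adjusted p = 0.0225 from limma), as at none of the other genes among the 64 tested for it, and the value in H113, which was at the level of the handled column mice, is part of the Trizol difference.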

How the results depend on the processing

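Limma called nothing under any alternative except that 1 probe set was higher without a trended prior. Fully separated probe sets numbered 675 higher and 804 lower after quantile normalization. They numbered 717 and 798 after arrays were given the same mean and variance, and 249 and 540 in the brighter 50%. Leaving out 1 mouse gave 707 to 1132 and 2003 to 2688, where having 1 mouse fewer makes separation easier. The share on the same side in column mice was, for higher probe sets, 72.6% (quantile), 73.5% (same mean and variance), 82.3% (brighter 50%) and 52.6% to 66.6% leaving out 1 mouse, and for lower ones 76.2%, 73.8% and 79.8% to 85.8% for the first, second and last of these.

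The distance within handled minus within non-handled pairs turned from 0.0177 to -0.0372 (quantile), -0.0301 (same mean and variance), -0.0319 (offset) and -0.0456 (brighter 50%), to -0.00588 without H126 and -0.00969 without NH146, and ran up to 0.0353 leaving out another mouse. The log2 SD ratio turned to 0.0437, 0.0638 and 0.0876 without NH138, NH144 and NH147, and ran down to -0.175 leaving out another mouse. It was -0.139 (quantile), -0.125 (same mean and variance), -0.122 (offset) and -0.187 (brighter 50%), beside -0.0504. No exact permutation test of either passed its threshold, and the causes were not tested.

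List medians leaving out 1 mouse ran from -0.57 to -0.31 for immediate early genes, -0.40 to -0.01 for endothelial markers, -0.08 to 0.04 for corticosteroid genes, -0.05 to 0.09 for CA1 markers, 0.06 to 0.22 for GABA genes, -0.12 to -0.04 for chromatin modifiers, -0.17 to -0.03 for potassium channels and -0.18 to 0.05 for glycolysis. The GABA median was -0.03 with the mean of all probe sets, and the potassium channel median -0.02 after quantile normalization. Of 1022 alternative values for 64 named genes, 1017 kept their direction. The other 5 were for Nr3c2, at 0.00 with array weights and 0.04, 0.01, 0.02 and 0.00 without H113, H130, NH138 and NH147 (-0.24 to 0.04 over all mice left out). No paired analysis was possible because handled and non-handled mice share no numbers.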
